A study of Mus musculus with 195 samples.

Results

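The 10 genes described here are Myc, Mycn and Max of the Myc network, their textbook target Odc1, and 6 genes for nucleolar proteins, Ncl, Npm1, Nop56, Nop58, Fbl and Dkc1. They were chosen by name, and all 10 are among the 19736 genes of the table of molecules per gene. BATSeq, the assay, reads the 3′ ends of polyadenylated RNA from single sorted cells, with a barcode for the cell and a random tag (unique molecular identifier, UMI) for the molecule. All reads of a gene with the same UMI stand for 1 molecule, and a transcript gives 1 molecule whatever its length, so levels of different genes can be set side by side.

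All cells derive from mouse embryonic stem (ES) cells, of the 46C reporter line in which GFP is expressed from the Sox1 locus. ESC-2i are ES cells kept in serum-free medium with PD0325901 (1 µM), an inhibitor of the kinase MEK, CHIR99021 (3 µM), an inhibitor of the kinase GSK3, and LIF (10 ng/ml). ESC-FCS are ES cells kept with 10% FBS and LIF (10 ng/ml), and NSC are neural progenitor cells derived from ES cells and grown in N2 and B27 with EGF and bFGF. Every cell is labelled G1, and the gate took small cells with unreplicated DNA, so large cells and cells with replicated DNA were gated out. The sources used here name no separate cultures, so a population counts as 1 culture of 1 reporter line, whose cells share their source. Populations are therefore compared without a test, and intervals cover counting error only.

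The cells kept had at least 1000 molecules on genes. They are 33 of 48 ESC-2i cells with 368363 molecules on genes in all, 33 of 48 ESC-FCS cells with 226684, and 41 of 48 NSC cells with 151877. Each population was made in 2 library batches. Per the methods, 48 further ESC-FCS cells (ESC-FCS control, 42 kept, 223055 molecules) and a pool of 48 ESC-FCS cells (179155 molecules) were made on the same day as each other, in addition to the main cells. The 2 ESC-2i pool libraries, also of 48 cells (479483 and 494799 molecules), are not stated to belong to either preparation, and they held 0 ERCC molecules against 76 in the ESC-FCS pool. A difference between media cannot be told apart from a difference between preparations in the pools. In a pool, fewer cells that express a gene and fewer transcripts in each cell cannot be told apart. Of 9 pluripotent cell markers, 7 were at 0 in NSC, where their summed level was 0.132 per 10000 molecules on genes, against 22.9 in ESC-2i and 24.3 in ESC-FCS. The sum of 10 neural stem cell markers was 55.1 in NSC, where Pax6 was at 0, against 1.95 in ESC-2i and 1.76 in ESC-FCS. Markers of neurons and astrocytes summed to 3.26, 5.16 and 4.48 in ESC-2i, ESC-FCS and NSC, and those of extraembryonic endoderm to 3.26, 1.06 and 4.48. Fibroblast markers were not detected in numbers that allow a comparison, and 10 genes of G2 and M phase summed to 9.77, 17.0 and 4.41. Spike-in (ERCC) molecules made up 3.97% of all molecules in ESC-FCS, 7.87% in ESC-2i and 9.50% in NSC.

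Myc and Mycn are transcription factors of the basic helix-loop-helix leucine zipper family. They bind DNA as partners of Max, preferably at the E-box CACGTG, and raise the transcription of many genes for growth, among them Odc1, which encodes the rate-limiting enzyme of polyamine synthesis, and the genes of ribosome production. Ribosomes are made in the nucleolus, where ribosomal RNA is transcribed, chemically modified, cut and assembled with proteins. Mouse ES cells are known to use Myc and Mycn to hold their growth and identity, and Mycn is also known for its part in neural progenitors.

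The polyadenylation sites that carried the results are shown by their last 30 bases, 5′ to 3′ on the strand of the gene and ending at the base before the poly(A) tail (GRCm38, read from GENCODE M21 transcripts), with a poly(A) signal hexamer, AATAAA or ATTAAA, in capitals where these bases hold 1. Myc and Mycn come first because only 1 of them was seen in each of the main populations, and both Npm1 sites because their shares did not overlap between populations.
Myc, chr15:61990320-61990349, plus strand: tctattgtttttagaaaaaAATAAAataat
Myc, chr15:61990218-61990247, plus strand: aataactttAATAAAacgtttataacagtt
Mycn, chr12:12936103-12936132, minus strand: cctcatgtttatgaaAATAAAtagcaatta
Npm1 distal, chr11:33152518-33152547, minus strand: atatacatgtgaAATAAActcagtatttta
Npm1 proximal, chr11:33154930-33154959, minus strand: cttagctactctcAATAAAtttttaaatga
Ncl most used, chr1:86350497-86350526, minus strand: cattccaagacagtaaagatcctaaactct
Nop58 most used, chr1:59711473-59711502, plus strand: ctttgatacacaAATAAAatattttctttg
Dkc1 gene end, chrX:75109745-75109774, plus strand: tatttttATTAAAagtctgaggtttatgtc
The most used Ncl site is shown because it had neither AATAAA nor ATTAAA, and other variants of the signal were not searched. That of Nop58 is shown because it lies inside the annotated gene.

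Myc itself (ENSMUSG00000022346, chromosome 15, 61985391 to 61990374, plus strand) was found in NSC and in neither embryonic population of the main set. It had 27 molecules in 16 of 41 NSC cells, 1.78 per 10000 molecules on genes (95% exact Poisson interval 1.17 to 2.59), with 17 in batch 1 and 10 in batch 2. In ESC-2i it had 0 molecules, and a floor of 3 molecules over the population is 0.0814 per 10000. In ESC-FCS it also had 0 molecules, with a floor of 0.132. Set against these floors, the level in NSC was 21.8-fold that of ESC-2i and 13.4-fold that of ESC-FCS. Exact conditional intervals were taken on the counts of 27 against 0, not on the floors, and start at 16.6 and 10.2. They are thus not intervals of the folds against the floors. With batch 2 of each population alone, the folds against the floors were 8.97 and 4.46. The lowest NSC batch (1.39 per 10000) was above both floors. ESC-FCS control cells and the ESC-FCS pool held Myc at 0.224 and 0.223 per 10000. Of the 27 molecules, 22 ended 25 bases before the annotated gene end and 4 at a site 127 bases before it. The authors' files also list 3 molecules antisense to Myc in NSC, which is no more than the floor.

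Mycn (ENSMUSG00000037169, chromosome 12, 12936093 to 12941914, minus strand) showed the converse. Its 7 molecules in ESC-2i lay in 6 of 33 cells (0.190 per 10000, interval 0.0764 to 0.392), with 14 in 12 of 33 ESC-FCS cells (0.618, 0.338 to 1.04) and 0 in the 41 NSC cells, where the floor is 0.198. In ESC-FCS it was 3.25-fold higher than in ESC-2i (exact conditional interval 1.23 to 9.51), and the batches did not overlap, at 0.229 and 0.155 in ESC-2i and 0.691 and 0.519 in ESC-FCS. Against the floor of NSC, the level in ESC-FCS was 3.13-fold higher, on 14 molecules, fewer than the 20 set for a comparison. The interval on the counts of 14 against 0, not on the floor, starts at 2.22. No fold is given for ESC-2i against NSC, since the ESC-2i level lies under the floor of NSC.

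To set cells of unlike depth side by side, each was thinned to 1000 molecules, after which Myc was found in 17.2% of NSC cells and Mycn in 1.78% of ESC-2i, 6.14% of ESC-FCS and 23.9% of ESC-FCS control cells. None of the 107 cells of the main set held molecules of both genes. In the 42 ESC-FCS control cells, which were made apart, Myc had 5 molecules in 5 cells, and 3 cells held both. Mycn was more frequent there, with 56 molecules in 27 cells, 2.51 per 10000 (1.90 to 3.26), and with up to 6 in a cell. This is 4.07-fold (2.23 to 7.91) the level in the main ESC-FCS cells, a larger ratio than that between ESC-FCS and ESC-2i, and both control batches (2.90 and 1.92) lay above both main batches. The ESC-FCS pool gave 50 Mycn molecules (2.79 per 10000) and 4 of Myc (0.223), close to the control cells. The ESC-2i pools gave 24 and 19 Mycn molecules (0.501 and 0.384 per 10000) and 0 and 2 of Myc. Mycn was thus higher in ESC-FCS than in ESC-2i in single cells and in pools, where the fold was 6.32 (4.12 to 9.74).

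**Figure D1:**
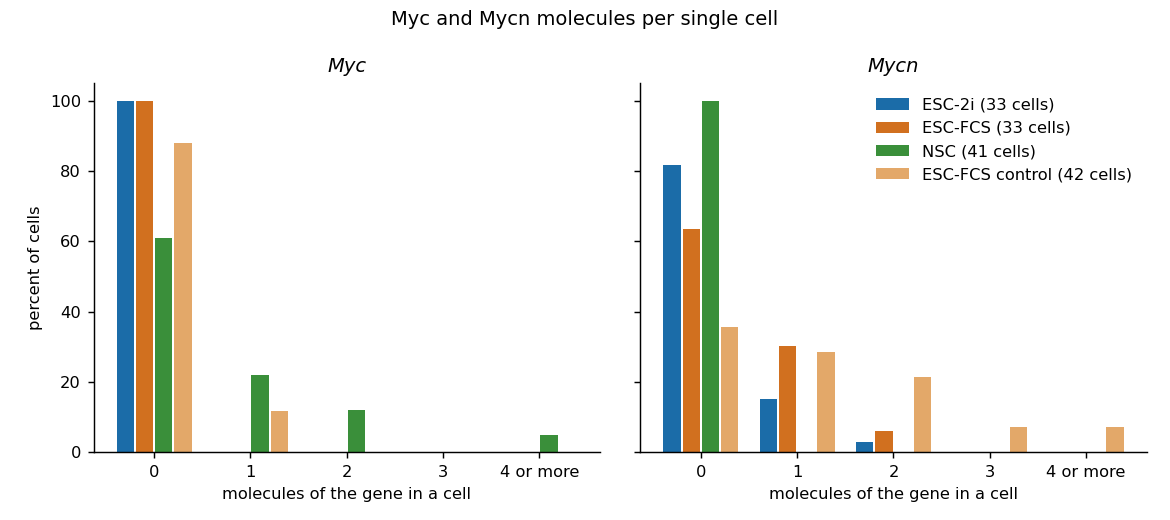
Percent of cells (y axis) by the number of molecules of the gene found in a cell (x axis), for Myc and Mycn in ESC-2i, ESC-FCS, NSC and ESC-FCS control cells. Myc molecules lie in NSC cells, up to 4 in a cell, and in 5 control cells, and no NSC cell holds a Mycn molecule.

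Max (chromosome 12, 76937269 to 76962201, minus strand), the partner without which neither factor binds the E-box, had 35 molecules in ESC-2i (0.950 per 10000), 17 in ESC-FCS (0.750) and 27 in NSC (1.78). NSC was 2.37-fold above ESC-FCS (1.25 to 4.64) and 1.87-fold above ESC-2i (1.09 to 3.18). The batches of NSC differed, at 1.13 and 2.50, and batch 1 of NSC was close to batch 1 of ESC-FCS (0.998). Scaled to ERCC molecules in place of molecules on genes, the NSC to ESC-FCS fold of Max was 0.934, so its direction depends on the scale. In the ESC-2i pools Max was at 1.21 and 2.55 per 10000, above the ESC-FCS pool at 0.726.

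For 7 of the 10 genes, 300 bases of promoter, most of them upstream of the start given by RefSeq (GRCm38.p6), were searched for CACGTG, which reads the same on both strands. Only that of Max held it, on the minus strand at chr12:76962234-76962263, with the E-box in capitals.
Max promoter: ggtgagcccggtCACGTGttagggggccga
Its first base lies 3 bases before the start. Of all 32851 promoters of this length, 7.15% held the motif. A match to these letters shows no binding. Sequence outside these bases, introns included, was not searched, so a gene without a match here may hold the motif elsewhere.

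Odc1 (chromosome 12, 17544794 to 17551505, plus strand) was a low gene in all single cells, with 15 molecules in ESC-2i (0.407 per 10000), 15 in ESC-FCS (0.662) and 7 in NSC (0.461). All intervals of its folds spanned 1, with 0.697 for NSC against ESC-FCS (0.240 to 1.81), 1.13 for NSC against ESC-2i (0.390 to 2.95) and 1.63 for ESC-FCS against ESC-2i (0.740 to 3.57). At this depth no difference was detectable between the populations. The pools gave another order. The ESC-2i pools held 142 and 134 molecules (2.96 and 2.71 per 10000), the ESC-FCS pool 17 (0.949), and the fold of the ESC-FCS pool over both ESC-2i pools was 0.335 (0.192 to 0.546).

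Of the other genes of the polyamine pathway, 5 reached 20 molecules in NSC and ESC-2i together, and 4 of them were at least 2-fold higher in NSC and 0 lower, against 19.3% and 24.3% of all genes compared. Azin1, which encodes an inhibitor of the antizyme that degrades the Odc1 protein, was 3.31-fold higher (1.42 to 7.96) and Sms, spermine synthase, 3.23-fold (1.85 to 5.74). Srm, spermidine synthase, was 2.98-fold higher in NSC than in ESC-2i (2.27 to 3.91), and 2.75-fold higher in ESC-FCS than in ESC-2i (2.14 to 3.55). Oaz1, the antizyme, was 2.41-fold higher in NSC (1.97 to 2.95). The values of Oaz1, and that of Srm in NSC, were chosen after they were seen. The intervals of Azin1, Srm, Sms and Oaz1 lay above 1 in NSC against ESC-2i. That of Odc1 (0.390 to 2.95, on 7 and 15 molecules) spanned 1 but overlapped all of these, so Odc1 is not shown to differ from them. Between ESC-FCS and ESC-2i, 3 of 5 were higher and 0 lower (8.17% and 14.5% of all genes), with Dhps, the first enzyme of hypusine formation on the translation factor eIF5A, at 3.45-fold (1.41 to 9.24). In NSC against ESC-FCS, 1 of 6 was higher and 0 lower (20.9% and 18.4% of all genes), and in the pools 5 of 12 were higher in ESC-FCS and 5 lower (19.4% and 31.9%).

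The nucleolar genes differed widely in level but much less between populations. Npm1 (chromosome 11, 33152287 to 33163206, minus strand), nucleophosmin, a chaperone that makes up much of the outer layer of the nucleolus, was the most abundant. It had 1231 molecules in ESC-2i (33.4 per 10000, 31.6 to 35.3), 1352 in ESC-FCS (59.6, 56.5 to 62.9) and 876 in NSC (57.7, 53.9 to 61.6). It was found in every main cell kept. By batch, Npm1 was at 33.3 and 33.5 in ESC-2i, 62.9 and 55.3 in ESC-FCS, and 61.5 and 53.4 in NSC, so ESC-2i lay apart from both other populations. The fold was 1.73 for NSC against ESC-2i (1.58 to 1.88), 1.78 for ESC-FCS against ESC-2i (1.65 to 1.93) and 0.967 for NSC against ESC-FCS (0.887 to 1.05). The control cells were at 65.1 and the ESC-FCS pool at 37.0, above the ESC-2i pools at 29.3 and 27.0. The pool direction depends on the unit, since the fold of 1.31 (1.21 to 1.43) became 0.633 when reads were counted in place of molecules. Npm1 is known for processed pseudogenes, and the authors kept uniquely aligned reads only. How many Npm1 reads were lost in this way was not tested.

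Ncl (chromosome 1, 86344719 to 86359400, minus strand), nucleolin, which binds nascent ribosomal RNA, was even across the populations. It had 251 molecules in ESC-2i (6.81 per 10000, 6.00 to 7.71), 185 in ESC-FCS (8.16, 7.03 to 9.43) and 109 in NSC (7.18, 5.89 to 8.66). All intervals of its folds included 1, from 0.879 (0.688 to 1.12) for NSC against ESC-FCS to 1.20 (0.985 to 1.45) for ESC-FCS against ESC-2i. The batches of ESC-FCS (6.91 and 9.85) and of NSC (8.40 and 5.83) differed by more than the populations did. The ESC-2i pools stood apart, at 25.0 and 21.2 per 10000, against 7.98 in the control cells and 8.93 in the pool of ESC-FCS.

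Nop56, Nop58 and Fbl encode the proteins of the box C/D small nucleolar ribonucleoproteins, in which Fbl, fibrillarin, methylates ribosomal RNA. Nop56 (chromosome 2, 130274430 to 130279313, plus strand) was at 3.42 per 10000 in ESC-2i (126 molecules), 5.16 in ESC-FCS (117) and 5.00 in NSC (76). Its fold was 1.51 for ESC-FCS against ESC-2i (1.16 to 1.96) and 1.46 for NSC against ESC-2i (1.09 to 1.96), and no batch of ESC-2i (3.90 and 2.99) reached those of ESC-FCS (5.53 and 4.67). In the control cells it was at 8.79, 1.70-fold the main ESC-FCS cells (1.35 to 2.16).

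Nop58 (chromosome 1, 59684971 to 59719044, plus strand), the partner of Nop56 in the same particle, had 86, 70 and 28 molecules, or 2.33, 3.09 and 1.84 per 10000 in ESC-2i, ESC-FCS and NSC. NSC was lower than ESC-FCS, with a fold of 0.597 (0.371 to 0.938). The other two folds had intervals that spanned 1. Fbl (chromosome 7, 28169710 to 28179269, plus strand) had only 13, 10 and 3 molecules, 0.353, 0.441 and 0.198 per 10000, so that NSC could not be compared. ESC-FCS against ESC-2i gave 1.25 for Fbl (0.491 to 3.09).

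Dkc1 (chromosome X, 75095854 to 75109777, plus strand), the pseudouridine synthase of the box H/ACA particles and a subunit of telomerase, had 23 molecules in ESC-2i (0.624 per 10000), 7 in ESC-FCS (0.309) and 4 in NSC (0.263). ESC-2i was 2.37-fold above NSC and 2.02-fold above ESC-FCS, but both intervals spanned 1 (for the inverse, 0.106 to 1.23 and 0.179 to 1.19). Of the 23 molecules in ESC-2i, 14 lay at sites in coding exons that are followed by a stretch rich in A. Without such sites 9, 5 and 2 molecules were left, too few to compare. The control cells had 21 Dkc1 molecules, 3.05-fold the main ESC-FCS level (1.25 to 8.49), of which 1 was at such a site.

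**Figure D2:**
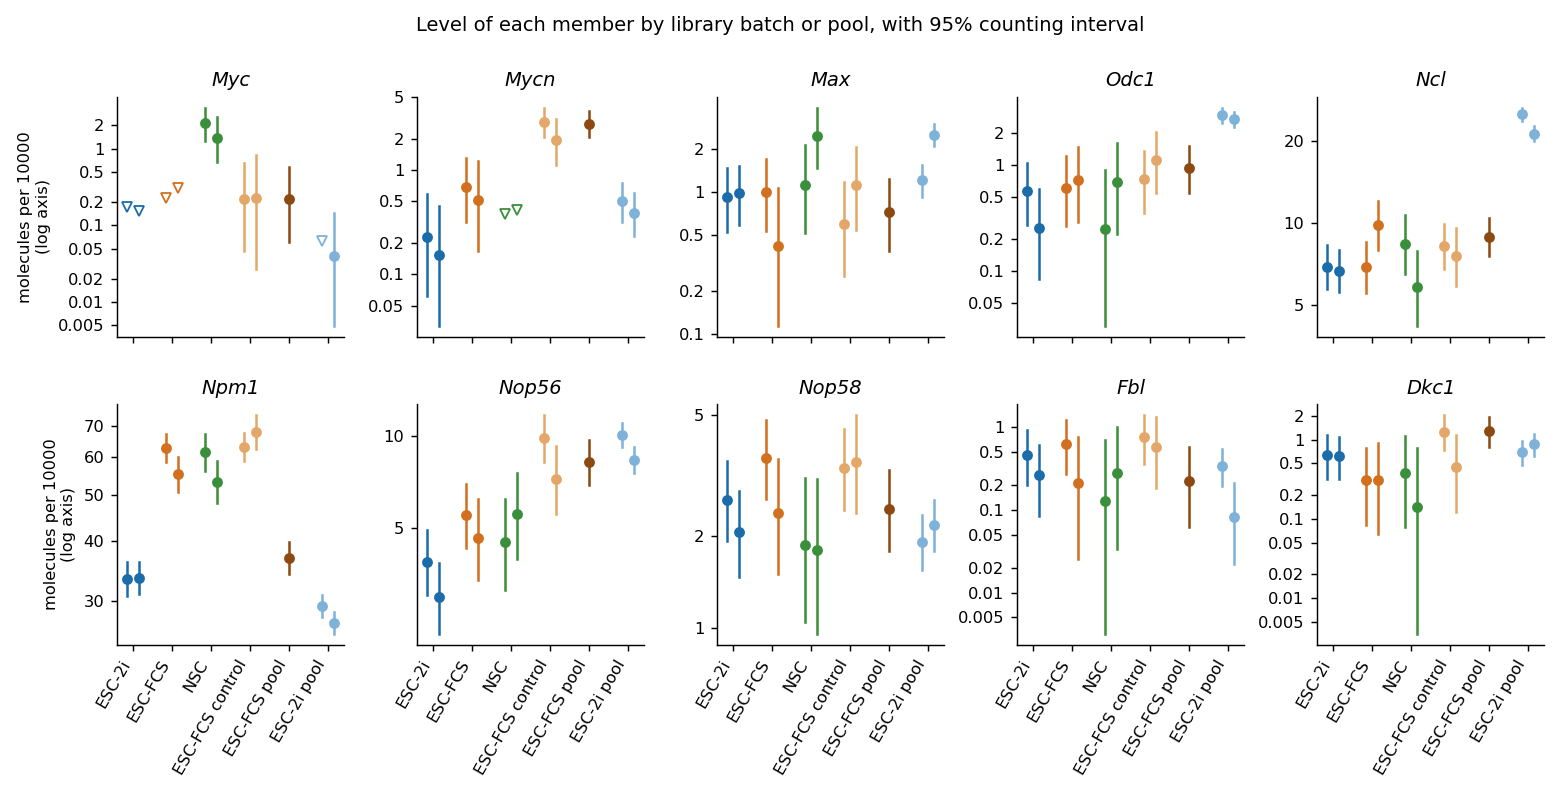
Level of each gene in molecules per 10000 molecules on genes (y axis, log scale, its own range in each panel) for each library batch of single cells and each pool (x axis). Points are levels, lines are exact 95% Poisson intervals, and open triangles mark libraries at 0, drawn at the floor of 3 molecules. Npm1 is lowest in the ESC-2i libraries and the ESC-FCS pool, and Ncl and Odc1 are highest in the ESC-2i pools.

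Summed over the 6 nucleolar genes, the level was 47.0 per 10000 in ESC-2i (44.8 to 49.2), 76.8 in ESC-FCS (73.2 to 80.5) and 72.2 in NSC (68.0 to 76.6). Npm1 supplied most of these molecules. The fold of the sum was 1.64 for ESC-FCS against ESC-2i (1.53 to 1.75), 1.54 for NSC against ESC-2i (1.42 to 1.66) and 0.940 for NSC against ESC-FCS (0.870 to 1.01). In each batch of ESC-2i (47.9 and 46.2) the sum was below each batch of ESC-FCS (79.8 and 72.7) and of NSC (76.8 and 67.0). The pools did not show this difference, with 58.1 in the ESC-FCS pool and 67.2 and 59.7 in the ESC-2i pools, a fold of 0.916 (0.857 to 0.978).

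Counted over genes with at least 20 molecules in the 2 populations together, 8 of the 10 genes could be compared between NSC and ESC-2i. Myc was at least 2-fold higher and Dkc1 at least 2-fold lower, against a background of 19.3% of 4803 genes higher and 24.3% lower. Between NSC and ESC-FCS, Myc and Max of 7 genes were higher and 0 lower, against 20.9% higher and 18.4% lower of 3600 genes. Between ESC-FCS and ESC-2i, Mycn of 9 genes was higher and Dkc1 lower, against 8.17% and 14.5% of 5007 genes. With so few members, counts of 1 or 2 lie near these background shares. In the pools, 1 of 9 genes, Mycn, was higher in ESC-FCS and 3 were lower, Max, Odc1 and Ncl, against 19.4% higher and 31.9% lower of 8013 genes.

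The 2 preparations of ESC-FCS single cells give the size of differences that arise without a change of medium. Between the control cells and the main ESC-FCS cells, 25.2% of 4064 genes were at least 2-fold apart in either direction, and of 9 members Mycn and Dkc1 were, both higher in the control. The other 7 members had folds of 0.978 to 1.70. The ratio of Mycn was thus smaller between the media (3.25) than between these preparations (4.07), and so was that of Nop56 (1.51 and 1.70). The ratio of Npm1 between the media (1.78) was larger than that between these preparations of cells (1.09, 1.01 to 1.18). It was close to that between the control cells and the pool prepared with them, where Npm1 was 1.76-fold higher in the cells and the sum of the 6 nucleolar genes in the pool was 0.668 of the cells (0.619 to 0.721).

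**Figure D3:**
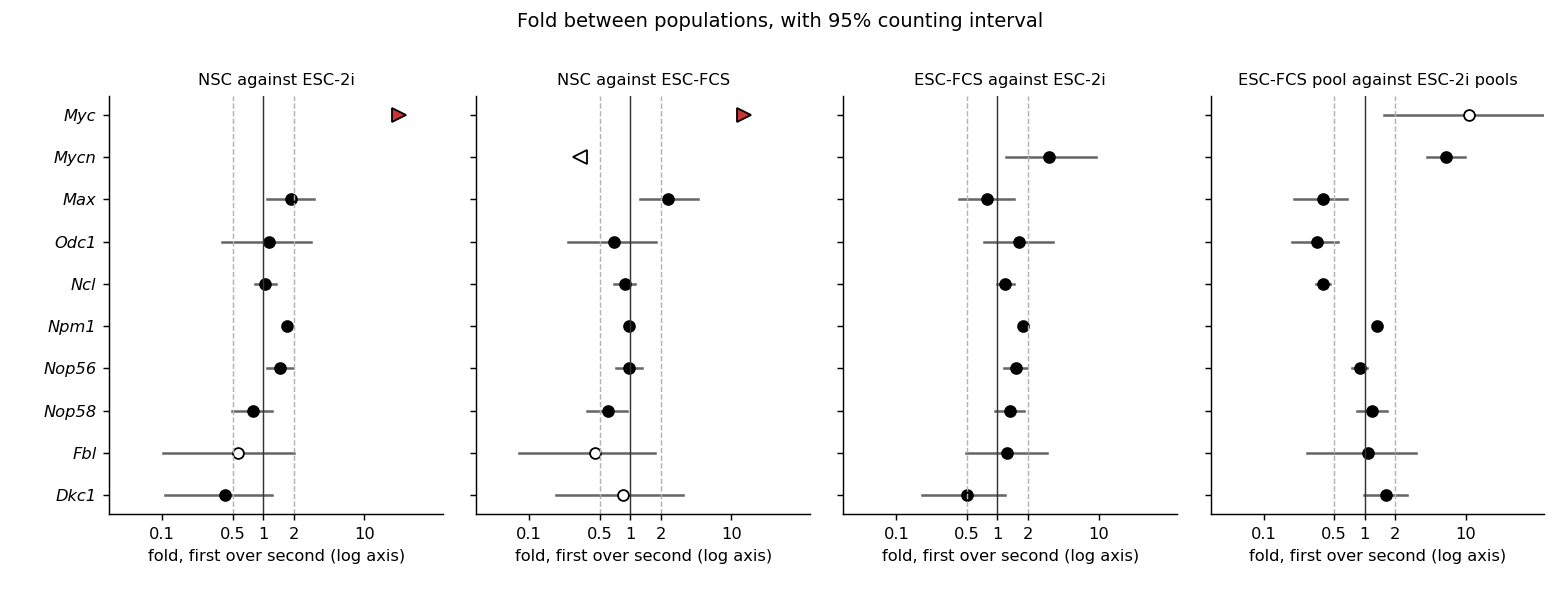
Fold between populations (x axis, log scale) for each gene, with the exact 95% counting interval as a line, in 4 comparisons. Filled symbols reach 20 molecules in both groups together, triangles are folds against the floor for a group at 0, and dashed lines mark 2-fold. Set against the floor, Myc lies 21.8-fold and 13.4-fold to the right in the NSC comparisons. The nucleolar genes Ncl, Npm1, Nop56 and Nop58 lie inside the dashed lines in the first 3 panels.

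Genes of the same pathways were examined by lists. Of 71 ribosome biogenesis factors, 9 were at least 2-fold higher and 0 lower in ESC-FCS than in ESC-2i, against 8.17% and 14.5% of all genes, with a median log2 fold of 0.35 against -0.07 over all genes compared. Krr1, of the small subunit processome, was 3.25-fold higher (1.23 to 9.51) and Utp6, of the same complex, 2.71-fold (1.37 to 5.53). In NSC against ESC-2i, 9 of 71 were higher and 3 lower, against 19.3% and 24.3% of all genes (median log2 0.20, all genes -0.05), with Nob1, the endonuclease that ends the maturation of small subunit RNA, at 3.46-fold (1.66 to 7.42). In the pools 8 of 78 were higher and 27 lower, against 19.4% and 31.9% of all genes, at a median log2 of -0.42 against -0.36. Relative to all genes, the list was thus shifted towards ESC-FCS in the main single cells, while in the pools its median lay near that of all genes. A shift also arose without a change of medium. For ESC-2i pools against ESC-2i cells the median log2 was 1.04 against 0.65 over all genes. For ESC-FCS control against main ESC-FCS cells it was 0.20 against 0.16, and for the ESC-FCS pool against control cells 0.07 against 0.18. Whether the shift stems from the medium was not tested.

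Of 12 partners of the snoRNP proteins, 2 were higher and 2 lower in NSC than in ESC-2i, near the 19.3% and 24.3% of all genes. Among them Rpap3, a chaperone in particle assembly, was 7.28-fold higher (2.98 to 20.3) and Gar1, a partner of Dkc1 in the H/ACA core, 3.50-fold lower. Gar1 was also 6.53-fold lower in NSC than in ESC-FCS, on 4 and 39 molecules. Of 14 genes of RNA polymerase I machinery, 1 was higher and 3 lower in NSC than in ESC-2i, against the same shares, at a median log2 fold of -0.45. Polr1e was 6.06-fold higher (2.22 to 19.1) and Taf1d, of the factor that selects the promoter of ribosomal RNA genes, 2.47-fold lower.

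Among the partners of Myc and Max, Wdr5, a chromatin scaffold that binds Myc, was 6.66-fold lower in NSC and 3.86-fold lower in ESC-FCS than in ESC-2i, where it had 113 molecules. Mxi1, which pairs with Max as an antagonist of Myc, was 3.23-fold higher in NSC (1.25 to 8.69) on 12 and 9 molecules. In all, 2 of 7 partners were higher and 1 lower in NSC than in ESC-2i, near the 19.3% and 24.3% of all genes. In NSC against ESC-FCS, 0 of 6 were apart either way (20.9% higher and 18.4% lower of all genes). In ESC-FCS against ESC-2i, 0 of 6 were higher and 1 lower (8.17% and 14.5%). Counts this small cannot be told from these shares.

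Of 30 textbook Myc targets, 7 were higher and 3 lower in NSC than in ESC-2i, near the 19.3% and 24.3% of all genes, at a median log2 fold of 0.37. Ccnd2, cyclin D2, had 44 molecules in NSC and 0 in both embryonic populations, 35.6-fold above the floor of ESC-2i. Slc7a5, an amino acid carrier, was 5.82-fold higher (2.68 to 13.6). Cdkn1a, a cell cycle inhibitor that Myc is known to repress, was 9.69-fold lower in NSC and 9.64-fold lower in ESC-FCS than in ESC-2i. In ESC-FCS against ESC-2i, 2 of 29 were higher and 1 lower (8.17% and 14.5% of all genes), and in the pools 7 of 34 were higher and 7 lower (19.4% and 31.9%). Of 7 genes of the p53 pathway that nucleolar stress engages, 3 were lower in NSC than in ESC-2i and 0 higher, against 24.3% and 19.3% of all genes. In the pools 3 of 8 were higher in ESC-FCS and 3 lower, against 19.4% and 31.9% of all genes. In NSC against ESC-2i, Ccng1, a target of p53, was 23.8-fold lower and Mdm2, the ligase that degrades p53, 3.41-fold lower.

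Between cells of the same population, no member was called more variable than the technical noise and a margin allow. Variability was tested with a chi-squared test against noise fitted on ERCC transcripts plus a margin of 0.25 on the squared coefficient of variation (CV2), for genes with a normalized mean above 0.5, with cells as units. In ESC-2i 6 members could be tested, in NSC 6 and in ESC-FCS 4, and 0 were called at an adjusted p below 0.1 over all genes, against a background of 0.608% of genes in ESC-2i, 10.7% in NSC and 3.36% in ESC-FCS. With so few members tested, 0 called lies near these shares. The NSC background depends on the setting, with 124 of 1157 genes called, 27 of 1448 over cells with at least 2000 molecules and 42 of 1399 with size factors from total molecules on genes and ERCC molecules, and 0 members in each. In simulated data, 44, 50 and 37 of 100 genes with an added CV2 of 1 were called in ESC-2i, ESC-FCS and NSC. Of those with a mean above 5, 5 of 5, 6 of 7 and 6 of 6 were called. Of unchanged genes, 21 of 3501, 74 of 1920 and 11 of 1040 were called. A member of low mean that was not called may thus still vary. At an unadjusted p below 0.05, 1 member passed in NSC and 0 in the other populations. The lowest p was that of Myc in NSC, where its CV2 over 41 cells was 2.70 against a technical 1.53 (p = 0.0186, Benjamini-Hochberg adjusted p = 0.152). With no margin, Npm1 was called in ESC-FCS, and Myc and Npm1 in NSC. The CV2 of Npm1 was 0.0766 against a technical 0.0574 in ESC-2i, 0.126 against 0.0568 in ESC-FCS, and 0.128 against 0.0847 in NSC.

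**Figure D4:**
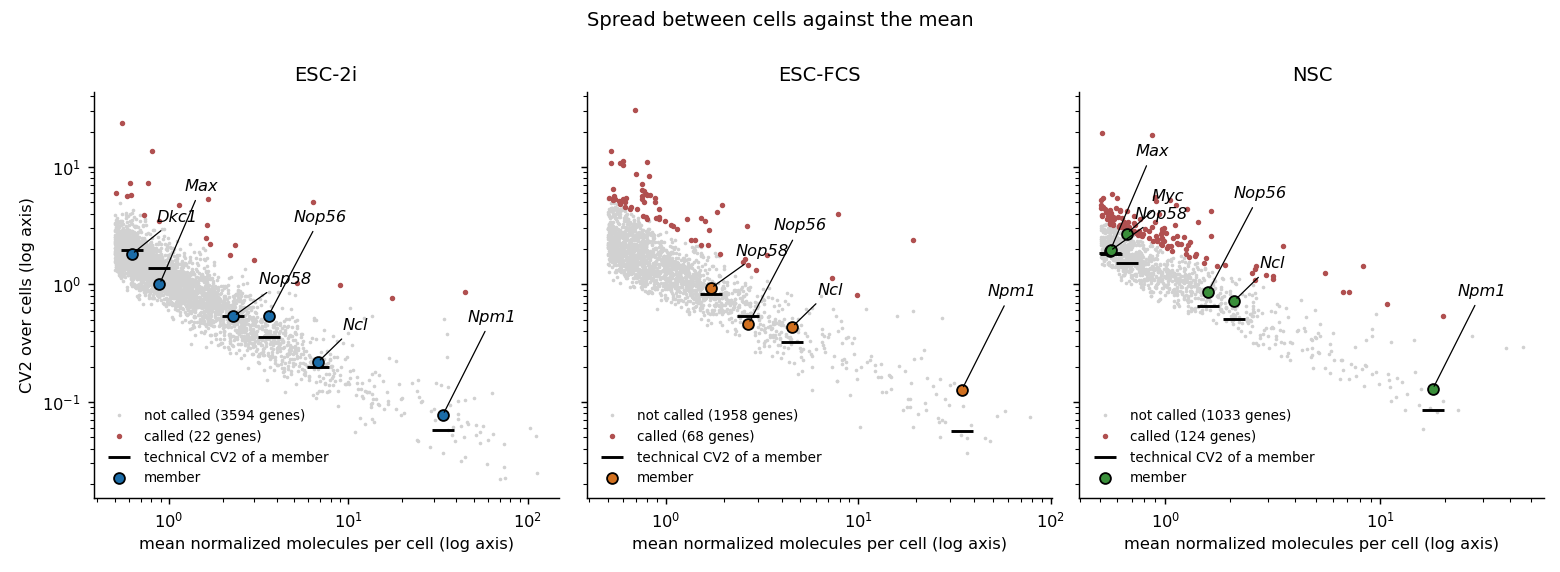
CV2 over cells (y axis) against the mean of normalized molecules per cell (x axis), both log scales, for every gene tested in ESC-2i, ESC-FCS and NSC. Named circles are the members, horizontal dashes their technical CV2 and red points the genes called variable. No member is a red point, and Myc in NSC lies at 2.70, above its technical 1.53.

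Correlations over cells are given as a description. After scaling to molecules on genes, Pearson's r between Ncl and Npm1 was 0.16 over 33 ESC-2i cells, 0.20 over 33 ESC-FCS cells and 0.39 over 41 NSC cells. That between Ncl and Nop58 was -0.41, -0.34 and 0.32 in the same order. These values depend on the scaling. With ERCC scaling r between Ncl and Nop58 was -0.22, -0.10 and 0.50, on unscaled molecules it was 0.16, 0.31 and 0.46, and r between Ncl and Npm1 in ESC-2i was 0.55 with ERCC scaling. Ncl, Npm1, Nop56 and Nop58 each rose with the depth of a cell, with r of 0.34 to 0.90 between molecules of the gene and molecules on genes, so cells of a population share differences in depth. Over the 11 libraries (8 batches of cells and 3 pools), the genes whose log2 level was most like that of Npm1 among 1279 genes were Tpt1 (r = 0.95), Srsf3 and Eif5a (0.90 each). For Ncl they were P4hb (0.96), Sf1 (0.95) and Psmd2 (0.93), for Nop56 Tomm70a (0.95), Ewsr1 (0.94) and Ptges3 (0.92), and for Nop58 Jarid2 (0.90), Brix1 (0.89) and Gapdh (0.84). Brix1 encodes a factor of large ribosomal subunit assembly. The libraries share medium and preparation, so the r values have no p.

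The share of the proximal Npm1 site differed in all 3 populations. The distal site, at 33152518, lies in the 3′ UTR of the longer annotated transcripts, and the proximal one, at 33154930, in the 3′ UTR of another transcript and outside the exons of the first. Of the molecules at both sites, the proximal site held 248 of 1192 in ESC-2i, 184 of 1314 in ESC-FCS and 65 of 847 in NSC. These are shares of 20.8% (exact Clopper-Pearson interval 18.5 to 23.2), 14.0% (12.2 to 16.0) and 7.67% (5.97 to 9.68). The batches of a population lay close together, at 21.7% and 20.0%, 14.0% and 14.0%, and 7.13% and 8.38%, and those of different populations did not overlap. Over cells with at least 10 molecules at both sites, the median share was 20.8% in 33 ESC-2i cells, 14.1% in 32 ESC-FCS cells and 8.25% in 34 NSC cells. Single cells ranged from 5.41% to 36.7%, 0% to 38.5% and 0% to 23.1%, and so overlapped.

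The order of the media was another in the other libraries. There the share of the proximal Npm1 site was 24.8% in the control cells (22.5 to 27.1), 39.4% in the ESC-FCS pool (35.6 to 43.3), and 2.38% and 2.12% in the ESC-2i pools. ESC-FCS was below ESC-2i in the main single cells and far above it in the pools. The control batches (22.3% and 28.3%) were also above both batches of main ESC-FCS cells and both batches of ESC-2i cells. The distal site held most Npm1 molecules of the main cells, 944, 1130 and 782 in the order above.

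**Figure D5:**
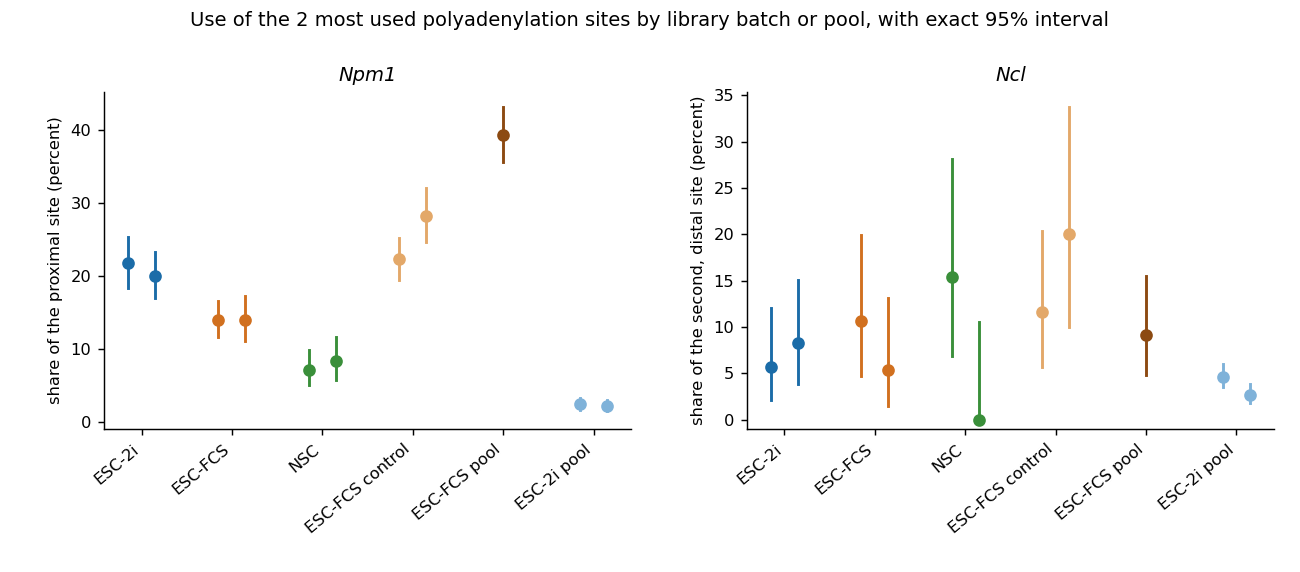
Share in percent (y axis) of the proximal Npm1 site and of the second, more distal Ncl site among the molecules at the 2 most used sites of the gene, by library batch or pool (x axis), with exact 95% intervals. For Npm1 the batches of a population lie together and the ESC-FCS pool is highest, while for Ncl the single-cell batches have wide intervals, those of the ESC-2i pools are narrow, and the batches of NSC differ.

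Ncl ends were spread over a long 3′ region. The most used site, at 86350497, lies 5778 bases before the annotated gene end and held 199 of 251 molecules in ESC-2i, 138 of 185 in ESC-FCS and 77 of 109 in NSC. Against it, the second site, at 86349633, held 7.01% in ESC-2i (3.98 to 11.3), 8.00% in ESC-FCS (4.20 to 13.6) and 9.41% in NSC (4.15 to 17.7). These intervals overlapped, and the batches of NSC were at 15.4% and 0% (0 of 33 molecules). Another site farther downstream, at 86346882, had 2, 4 and 10 molecules, 0.797%, 2.16% and 9.17% of the gene in ESC-2i, ESC-FCS and NSC. None of the 6 Ncl sites, which had 5 to 414 molecules in the main cells, had AATAAA or ATTAAA in the 50 bases before it. Of 8042 sites of all genes, all with at least 10 molecules, 82.2% did. Other variants of the signal were not searched, so a site without these hexamers may still hold a signal.

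Sites inside coding exons formed a group of their own. Of 30 sites of the members that could be read, 11 lay in coding exons, of Ncl, Npm1, Nop56, Nop58 and Dkc1. None of the 11 had either hexamer, and the 20 bases after them held 11 to 14 A, with 9 of 11 at 12 or more. Over all genes, 7.54% of 3740 sites with at least 10 molecules had 12 or more, whereas sites of the members were read from 3 molecules on. Of the other 19 sites, 12 had a hexamer, and the bases after them held 2 to 10 A where they could be read. In Dkc1 the most used site of ESC-2i, at 75108706, was of this kind. The 30 transcript bases up to it and the 20 after it show the A stretch.
Dkc1 coding site, last bases: gggcgaaactggagatggggacaacgacac
Dkc1 coding site, bases after: caccaaaaagaaaaagaaga
This site held 11 of 23 Dkc1 molecules in ESC-2i, 0 in the ESC-FCS control cells and pool, and 27 of 76 in the ESC-2i pools. Nop58 had 17 of 86, 13 of 70 and 10 of 28 molecules at sites followed by 12 or more A, in ESC-2i, ESC-FCS and NSC. Without them its level in NSC rested on 18 molecules. Whether these molecules stem from priming inside the transcript was not tested, and the authors had already removed sites in windows rich in A.

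The most used Nop58 site, 7542 bases before the annotated gene end, held 66 of 86 molecules in ESC-2i, 47 of 70 in ESC-FCS and 15 of 28 in NSC. Nop56 and Fbl were simple by comparison. The main site held 97.6%, 92.3% and 98.7% of Nop56 molecules in the same order, and every Fbl molecule of the main cells lay at the annotated gene end. The Myc network genes and Odc1 also ended mostly at the annotated end. For Max, 74.3%, 82.4% and 88.9% of molecules lay 4 bases before it, and for Odc1 80.0%, 86.7% and 100% lay 6 bases before it. The Mycn site shown above held 85.7% of Mycn molecules in ESC-2i and in ESC-FCS.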

How the data were processed

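BATSeq libraries of 195 samples were used. As deposited by the authors, the values are counts of UMIs and reads per polyadenylation site, and counts of UMIs per gene for 107 cells, without normalization. Per the methods, reads with a terminal A stretch were aligned to GRCm38 and ERCC sequences, filtered for unique alignment and A-rich ends, and UMIs and positions within 12 nt were merged. The submitters' notes name HTSeq and R 3.0.2. Here, molecules of a gene were pooled over the cells kept and divided by molecules on genes, times 10000. Depth per cell was 5342 to 21049 molecules in ESC-2i, 1079 to 14819 in ESC-FCS, 1234 to 9037 in NSC and 1323 to 14547 in the control. Intervals are exact at 95% and cover counting error only. A gene was compared at 20 molecules in both groups, with 3 molecules as the floor and 2-fold as the limit. Sites of control cells and pools were matched within 25 nt. Batches follow the batch barcodes of the labels. The control cells share 48 pairs of batch and cell barcodes with ESC-2i cells, and were made apart. Reported names are all members and, per list and comparison, at most the 2 largest folds each way. In addition, the 3 genes most alike over libraries were named, on log2 of the level plus 0.1. The members and lists were chosen with earlier results of these data known. Alternatives were other cells, scales, limits, batches, reads and sites. The fold and variability code was tested on simulated data, with the outcome for variability given above. Scripts ran in Python 3.11.15. They used scipy 1.17.1 and numpy 2.4.6 for statistics, and pandas 2.3.3 and matplotlib 3.10.9 for tables and plots. The authors' table of isoform counts over cells was not used here.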

Additional observations from a re-analysis of the deposited data

Results flagged for a closer look

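Between ESC-FCS and ESC-2i, 5 measures of the members moved one way in every main library batch of single cells and the other way in every pool. The ESC-FCS control batches were not part of this comparison, and ESC-FCS cells below are the main ones. In both control batches, Odc1, Nop56 and the nucleolar sum were above the ESC-2i cells too. The proximal Npm1 share there (22.3% and 28.3%) was above the ESC-2i cells, as in the pools, and Dkc1 was at 1.26 and 0.452 per 10000. The directions are those of the point values, whose intervals can overlap. The ESC-FCS pool is 1 library and the ESC-2i pools are 2, so the difference was not tested, and its cause was not tested. The level of Odc1 was higher in both ESC-FCS batches of cells (0.614 and 0.726 per 10000) than in ESC-2i (0.573 and 0.258), but 0.949 in the ESC-FCS pool against 2.96 and 2.71 in the ESC-2i pools. In the cells this rests on 15 molecules in each population, no difference was detectable, and by reads the fold was 0.585. Nop56 was higher in ESC-FCS cells (5.53 and 4.67 against 3.90 and 2.99) and, at 8.21 in the ESC-FCS pool, below the ESC-2i pools (10.0 and 8.33), a small step. Dkc1 was lower in ESC-FCS cells (0.307 and 0.311 against 0.631 and 0.619) but in the pools it was higher in ESC-FCS, at 1.28 against 0.688 and 0.869. Of its 23 molecules in ESC-2i cells, 14 lay at sites followed by many A. The sum of the 6 nucleolar genes was higher in ESC-FCS cells (79.8 and 72.7 against 47.9 and 46.2), and 58.1 in the ESC-FCS pool was below 67.2 and 59.7. The share of the proximal Npm1 site was lower in ESC-FCS cells (14.0% and 14.0% against 21.7% and 20.0%), and 39.4% in the ESC-FCS pool was above 2.38% and 2.12%.

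Beside these values stand measured differences between the sets. Over all genes compared, the ESC-2i pools were above the ESC-2i cells by a median of 1.57-fold. Ncl was 3.38-fold higher in these pools (2.97 to 3.87) and Odc1 6.96-fold (4.14 to 12.6), while Npm1 was at 0.842 of the cells (0.787 to 0.901). The ESC-FCS pool held no Pou5f1 molecule, and the ESC-2i pools held no ERCC molecules. The sources used here do not state that the pools were prepared together.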

How the results depend on the processing

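Scaling to ERCC molecules moved the median log2 fold of all genes from -0.07 to 0.98 for ESC-FCS against ESC-2i, from 0.05 to -1.30 for NSC against ESC-FCS and from -0.05 to -0.35 for NSC against ESC-2i. Of genes past 2-fold, the share that was higher moved from 36.1% to 93.5%, from 53.1% to 8.80% and from 44.2% to 30.2%. Under it, members apart numbered 7, 6 and 2, the summed nucleolar fold was 3.38, 0.370 and 1.25, and the folds of Max for NSC against ESC-FCS (0.934) and of Dkc1 for ESC-FCS against ESC-2i (1.02) turned, both from past 2-fold. Of folds within 2-fold, Max for ESC-FCS against ESC-2i went from 0.789 to 1.63, and Ncl and Odc1 for NSC against ESC-2i from 1.05 to 0.858 and from 1.13 to 0.922. Median-ratio factors gave sums of 1.33 for NSC against ESC-2i and 0.856 for NSC against ESC-FCS. Reads in place of molecules gave 0.868 for NSC against ESC-FCS, 1.84 for ESC-FCS against ESC-2i with 1 member apart, and distal Npm1 shares of 84.3% in ESC-2i and 91.9% in ESC-FCS.

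Counts of members apart, in the order NSC against ESC-2i, NSC against ESC-FCS and ESC-FCS against ESC-2i, were 4, 3 and 5 at 1.5-fold, 1, 1 and 1 at 3-fold, 0, 0 and 0 in batch 1 and 1, 1 and 1 in batch 2, where fewer members reach 20 molecules. With no limit on molecules NSC against ESC-FCS gave 4. ESC-FCS against ESC-2i gave 1 with the mean of single-cell levels, and 1 without the highest cell of each gene. Without A-rich sites, an alternative chosen after seeing the data, 1 was apart for NSC against ESC-2i and 1 for ESC-FCS against ESC-2i, as Dkc1 was no longer compared. In batch 1 the split of all calls for ESC-FCS against ESC-2i was 46.9% higher. In batch 2 the fold of Fbl for NSC against ESC-FCS was 1.34, on 2 molecules in each. With either ESC-2i pool left out, members apart in the pools were 3 to 4. The distal Ncl share in NSC was 0% in batch 2. With no margin, 1 member was called variable in ESC-FCS and 2 in NSC.

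Of the members' folds under all alternatives, 28 of 338 lay on the other side of 1 from the reported fold, 26 of them of folds whose interval spans 1. The others were Max for NSC against ESC-FCS with ERCC (0.934) and Npm1 in the pools by reads (0.633). By reads Odc1 for ESC-FCS against ESC-2i was 0.585. Of 36 correlations over cells under another setting, 11 moved by 0.2 or more. No paired analysis was possible because batches of different populations share only a number and no test between populations was made. Mycn, Fbl, Dkc1 and Odc1 rest on few molecules in the main cells.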
